A study of Mus musculus with 6 samples.

Results

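The genes described here make, sense, move and export cholesterol. They were taken by name as a list of 30 members: 18 enzymes of cholesterol synthesis, 5 genes of the SREBP control circuit, 3 genes of intracellular sterol transport and 4 genes of efflux and its nuclear receptors, LXR. Of these, 28 were measured by a transcript cluster with a single gene symbol, out of 23410 transcript clusters tested. Acat2, which condenses acetyl-CoA at the start of the pathway, and Nr1h2, which encodes the β form of LXR, were matched by no such cluster and are not analysed here.

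The study asked whether the Y chromosome (ChrY) of the father affects daughters, which do not inherit it. RNA came from CD4+TCRβ+ T cells sorted from the lymph nodes of 8-week-old, unimmunised females born in mixed-sex litters. C57BL/6J (B6) was compared with B6-ChrYSJL, a consomic strain that carries the ChrY of SJL mice on the B6 background. All females therefore shared the B6 background, no gene was deleted and no treatment was given, and the sires differed in ChrY. Each group had 3 arrays, each made from a separate pool of 5 mice, so individual animals were not measured.

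Cholesterol is built from acetyl-CoA through mevalonate, squalene and lanosterol. When sterols in the endoplasmic reticulum run low, SCAP carries the SREBP precursors to the Golgi for cleavage, and the released factors switch on the synthesis genes, while INSIG proteins hold SCAP back when sterols are plentiful. Oxysterols activate LXR, which with its partner RXR switches on the exporters ABCA1 and ABCG1. Dividing T cells need sterols for new membrane, and activation is known to raise the SREBP programme and lower LXR signalling in these cells.

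Values are RMA log2 values, and differences are log2 fold changes, B6-ChrYSJL minus B6, from limma. FDR is the Benjamini-Hochberg adjusted p over all 23410 transcript clusters. Arrays correlated at 0.995 to 0.997 and had medians of 6.55 to 6.59, and no array stood apart. The upper quartiles separated by strain, at 8.349 to 8.395 in B6 and 8.312 to 8.348 in B6-ChrYSJL. The T cell genes Cd4 and Cd3e averaged 11.52 and 12.50 over the 6 arrays and differed by −0.03 and 0.01 between strains. Cd44, Foxp3 and Mki67, which mark memory, regulatory and dividing T cells, averaged 8.29, 9.39 and 6.13, above a background level of 5.98, below which 95% of olfactory and vomeronasal receptor transcripts lay on average. RNA of Cd44 and Foxp3 was thus detected in both strains, in cells sorted on CD4 and TCRβ without a marker of naive cells. Mki67 averaged 6.44 in B6 and 5.82, below background, in B6-ChrYSJL. An exact permutation of 3 pools against 3 reaches no p smaller than 0.1, and tests of members therefore rest on limma, which borrows the spread of all transcripts.

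Promoter windows were read from RefSeq (GRCm38.p6) as 250 bases before to 50 bases after each annotated start, and 24 of the 30 members had 33 windows among 32851 in all. SREBP binds the sterol regulatory element, searched here as TCACNCCAC or in its E-box form TCACGTGA, usually next to NF-Y, which binds CCAAT. Both strands were searched. TCACNCCAC was found in 1 of the 33 windows, that of Hmgcs1, 137 bases before the start, against 1.24% of all windows. TCACGTGA was found in none, against 0.974% of all windows. CCAAT or its reverse ATTGG was found in 20 of the 33 windows (60.6%), belonging to 19 genes, against 37.4% of all windows. A match to letters describes the window and does not show binding, and a window without a match says nothing of the factor.

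The promoters of 4 genes are shown as examples of the windows, and the bearing of their letters on the values below was not tested. Capitals mark the matches. Hmgcs1 (chr13:119690101-119690400, plus strand) holds the sterol element and 4 CCAAT boxes on the opposite strand. Sc5d (chr9:42264251-42264550, minus strand) is the member with the highest log2 fold change and holds 1 CCAAT box on the opposite strand. Abca1 (chr4:53159846-53160145, minus strand) is the member with the lowest. Its capitals mark an LXR element of the DR4 kind, in which GGTTA and CGGTCA stand 4 bases apart, here on the opposite strand and 67 bases before the start. Srebf1 (chr11:60210422-60210721, minus strand, 1 of its windows) holds the same element 182 bases before the start, together with a CCAAT box. These letters were chosen after the Abca1 window was read. They occurred in 4 of all 32851 windows (0.0122%), those of Abca1 and Srebf1 among them.
Hmgcs1: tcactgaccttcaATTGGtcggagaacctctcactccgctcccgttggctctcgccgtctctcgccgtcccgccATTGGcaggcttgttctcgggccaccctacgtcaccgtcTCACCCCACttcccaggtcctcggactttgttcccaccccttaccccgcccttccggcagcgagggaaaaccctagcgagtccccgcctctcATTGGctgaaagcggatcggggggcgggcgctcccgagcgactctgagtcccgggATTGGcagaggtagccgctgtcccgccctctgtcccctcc
Sc5d: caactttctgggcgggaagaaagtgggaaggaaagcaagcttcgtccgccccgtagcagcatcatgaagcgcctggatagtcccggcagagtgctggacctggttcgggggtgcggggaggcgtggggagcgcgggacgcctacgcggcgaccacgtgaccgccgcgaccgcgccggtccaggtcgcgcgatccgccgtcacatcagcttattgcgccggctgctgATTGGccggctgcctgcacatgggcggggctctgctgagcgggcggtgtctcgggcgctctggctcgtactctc
Abca1: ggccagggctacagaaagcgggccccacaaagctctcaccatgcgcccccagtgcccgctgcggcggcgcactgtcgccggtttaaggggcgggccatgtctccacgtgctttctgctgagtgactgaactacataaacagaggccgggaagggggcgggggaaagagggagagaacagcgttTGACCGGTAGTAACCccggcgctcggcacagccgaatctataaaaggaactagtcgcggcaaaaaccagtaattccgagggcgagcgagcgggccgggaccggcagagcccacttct
Srebf1: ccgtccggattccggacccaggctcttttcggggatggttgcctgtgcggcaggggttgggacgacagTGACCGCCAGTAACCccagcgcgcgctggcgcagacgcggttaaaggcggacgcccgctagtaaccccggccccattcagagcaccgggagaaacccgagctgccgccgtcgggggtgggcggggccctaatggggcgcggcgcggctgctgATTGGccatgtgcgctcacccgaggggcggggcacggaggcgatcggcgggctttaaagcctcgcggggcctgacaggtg

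All 28 measured members averaged above the background level, as did 61.6% of all transcripts tested. None differed between the strains at an FDR of 0.05, where 4 transcripts (0.0171% of those tested) did, and the FDR of the members ran from 0.323 to 0.997. At an unadjusted p under 0.05 a single member, Sc5d, was higher in B6-ChrYSJL (3.57% of 28, against 4.69% of all transcripts) and a single member, Abca1, was lower (3.57%, against 5.92%). The share of members called in either direction, 7.14%, lay below the 10.6% of all transcripts tested. The pools of the strains did not overlap for 1 member that was higher, Sc5d (3.57%, against 7.68% of all transcripts), and for 3 that were lower, Scap, Abca1 and Abcg1 (10.7%, against 9.42%). These shares were near those of all transcripts. The split of calls depended on scaling: when quantile normalization was repeated over the named transcripts, 4 members were higher (Sqle, Cyp51, Msmo1 and Sc5d) and 1 was lower (Abca1), with 1180 and 1191 of all transcripts.

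Differences of the members were small. The log2 fold changes ran from −0.29 to 0.19, with 11 above and 17 below 0. Their median was −0.02, against −0.00 over all transcripts and −0.02 over the 14419 above background. Fitted alone, 733 of those 14419 were higher and 1257 lower at an unadjusted limma p under 0.05. The median of the members turned to 0.01 when quantile normalization was repeated. Of the 28, 27 lay between −0.21 and 0.20, the 5th and 95th percentiles of all transcripts, and Abca1 lay outside. Every member had a 95% interval within ±0.5, and 19 had one within ±0.3. The half-width of these intervals had a median of 0.18, which corresponds to 1.13-fold. The median SD between pools of a strain was 0.09 for the members and 0.10 for all transcripts.

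**Figure D1:**
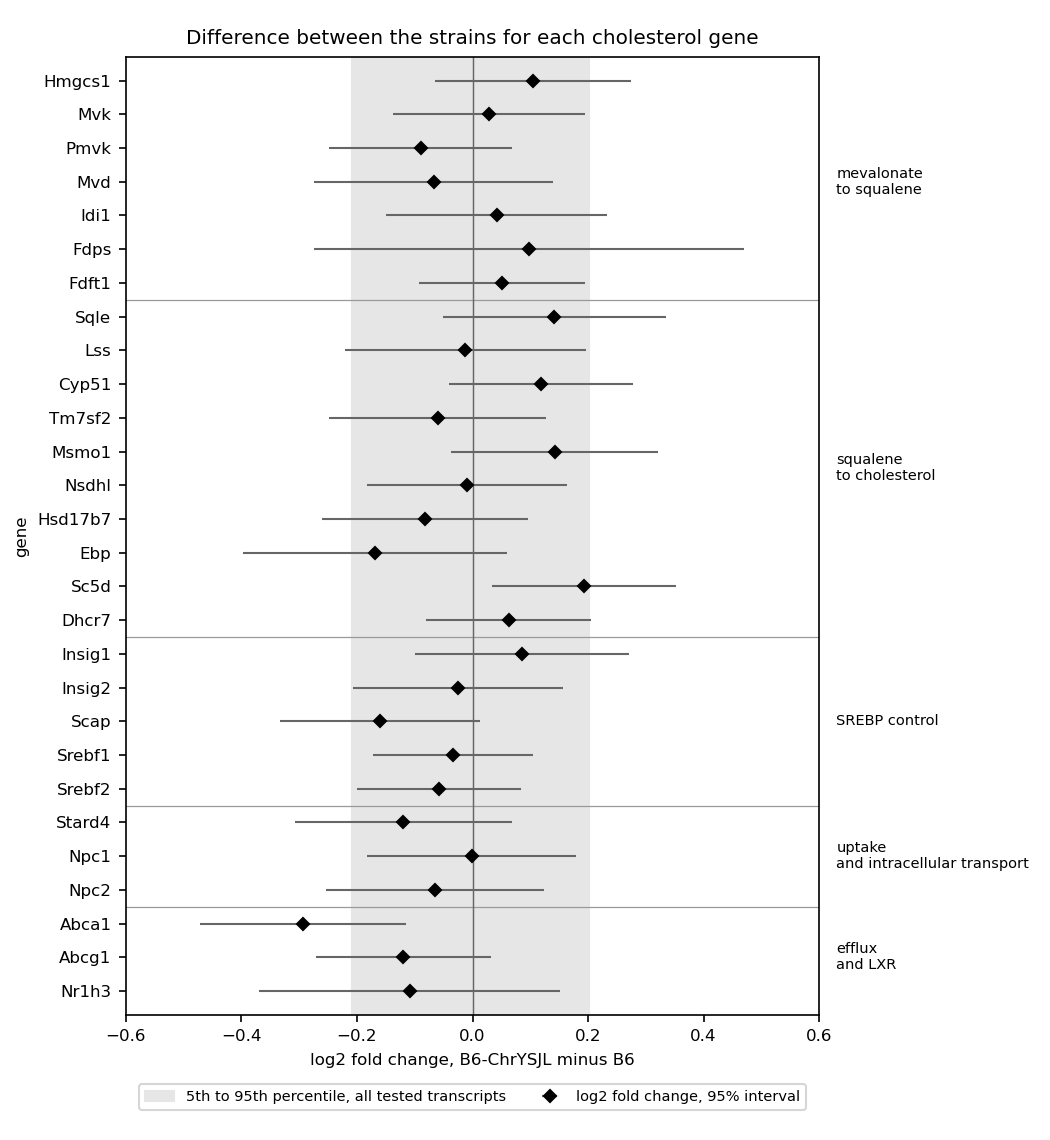
Log2 fold change of each measured member, B6-ChrYSJL minus B6, with its 95% interval from limma (3 pools against 3), grouped by role. The grey band spans the 5th to 95th percentiles of all 23410 transcripts, and the diamond of Abca1, at −0.29, lies outside it.

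The early enzymes, which lead from acetyl-CoA to squalene, did not pass the test in either direction: 0 of 7 measured members had a p under 0.05, 5 lay above and 2 below 0, and their median was 0.04. Hmgcs1, the cytosolic HMG-CoA synthase, had the smallest p of this group. It read 8.06, 8.17 and 8.01 in the B6 pools and 8.12, 8.15 and 8.27 in the B6-ChrYSJL pools. The strains overlapped, and the log2 fold change was 0.11 (SE 0.07, FDR 0.65). The kinases and decarboxylase that turn mevalonate into isopentenyl diphosphate had log2 fold changes of 0.03 (Mvk), −0.09 (Pmvk) and −0.07 (Mvd). The isomerase Idi1 differed by 0.04 and squalene synthase, Fdft1, by 0.05.

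Fdps, which makes farnesyl diphosphate, had the widest 95% interval of the members, from −0.27 to 0.47 around 0.10. B6 replicate 1 stood apart at 7.51, whereas the other B6 pools read 8.18 and 8.07 and the B6-ChrYSJL pools 8.11, 8.07 and 7.87. A second transcript cluster was annotated to Idi1 and to Fdft1. For Idi1 it differed by 0.18 (SE 0.10, unadjusted p = 0.13), and for Fdft1 by −0.03 where the cluster used here gave 0.05. The values of Idi1 and Fdft1 therefore depend on the cluster chosen, and the 26 members with a single cluster could not be checked in this way.

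Of the 10 late enzymes, which turn squalene into cholesterol, 5 lay above and 5 below 0, with a median of 0.03. At an unadjusted p under 0.05, 1 was higher (10.0%, against 4.69% of all transcripts) and none was lower. Sc5d, the desaturase that acts shortly before Dhcr7, was the one. It read 8.63, 8.62 and 8.62 in the B6 pools and 8.71, 8.88 and 8.86 in the B6-ChrYSJL pools. Every B6-ChrYSJL pool lay above every B6 pool. The log2 fold change was 0.19 (SE 0.07, 1.14-fold, unadjusted p = 0.023), but the FDR was 0.41. Leaving out B6 replicate 2, B6 replicate 3, B6-ChrYSJL replicate 2 or B6-ChrYSJL replicate 3 ended this call, with unadjusted limma p-values of 0.054, 0.056, 0.071 and 0.074 and log2 fold changes of 0.16 to 0.19.

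Lss, which closes squalene epoxide into lanosterol, had a value close to 0. Its B6 pools read 6.75, 6.70 and 6.95 and its B6-ChrYSJL pools 6.74, 6.70 and 6.92. The ranges nearly coincided, and the log2 fold change was −0.01 (SE 0.09, FDR 0.97). The squalene epoxidase Sqle (0.14), the lanosterol demethylase Cyp51 (0.12) and the methylsterol oxidase Msmo1 (0.14) lay above 0 and passed the unadjusted threshold together when quantile normalization was repeated. The sterol isomerase Ebp had the lowest value of the enzymes, −0.17. Its B6 pools spread from 7.83 to 8.19 while its B6-ChrYSJL pools stayed between 7.88 and 7.91. The reductase Tm7sf2 differed by −0.06, Nsdhl by −0.01, Hsd17b7 by −0.08 and the final reductase Dhcr7 by 0.06.

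**Figure D2:**
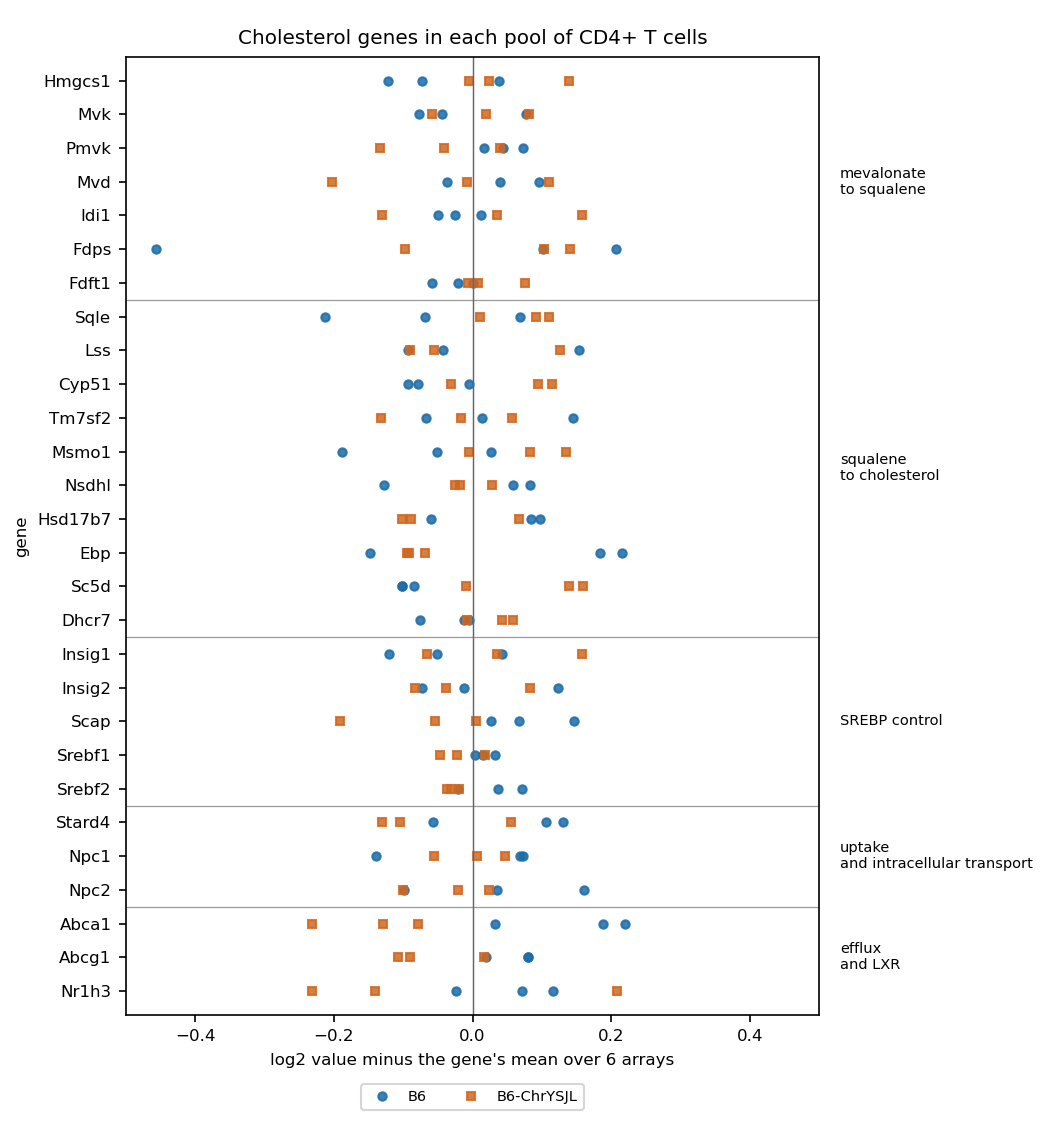
Log2 value of each measured member in each pool, centred on that gene's mean of 6 arrays, with B6 pools as circles and B6-ChrYSJL pools as squares. The 3 pools of each strain are intermixed for most genes, B6 replicate 1 stands apart for Fdps, and the strains separate for Sc5d, Scap, Abca1 and Abcg1.

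The control circuit held 5 measured members, none of which passed the unadjusted threshold (median −0.03, 1 above and 4 below 0). The median turned to 0.00, with 3 above and 2 below 0, when quantile normalization was repeated. Scap, the sterol sensor that escorts the SREBP precursors, had the smallest p. It read 9.09, 9.13 and 9.21 in the B6 pools and 9.07, 9.01 and 8.88 in the B6-ChrYSJL pools. The lowest B6 pool lay just above the highest B6-ChrYSJL pool. The log2 fold change was −0.16 (SE 0.08, 1.12-fold, unadjusted p = 0.065, FDR 0.50). The unadjusted p passed the threshold under 4 of the 16 alternatives, being lowest with an intensity trend in the variance (0.034) and highest, at a log2 fold change of −0.10, without B6-ChrYSJL replicate 3 (0.22).

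Srebf2, which encodes the factor that chiefly drives the cholesterol genes, held a narrow range. Its B6 pools read 10.20, 10.11 and 10.16 and its B6-ChrYSJL pools 10.10, 10.09 and 10.11. The strains overlapped by 1 pool, and the log2 fold change was −0.06 (SE 0.06, FDR 0.77). Srebf1, whose product leans towards the fatty acid genes and which is itself an LXR target, differed by −0.03. Insig1, a target of SREBP as well as its brake, differed by 0.09, and its relative Insig2 by −0.03.

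None of the 3 genes of sterol transport passed the unadjusted threshold (median −0.07). Stard4, a soluble carrier of cholesterol between membranes, read 7.03, 7.21 and 7.19 in the B6 pools and 6.95, 6.98 and 7.14 in the B6-ChrYSJL pools. The strains overlapped, and the log2 fold change was −0.12 (SE 0.08, FDR 0.63). Npc1 and Npc2 together release cholesterol from lysosomes. Npc1 had the value nearest to 0 of the members, −0.00. Npc2 read 10.30, 10.16 and 10.42 in B6 and 10.24, 10.29 and 10.16 in B6-ChrYSJL, so that the ranges overlapped almost fully. Its log2 fold change was −0.07 (SE 0.08, FDR 0.81).

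The 3 measured genes of efflux and LXR all lay below 0, with a median of −0.12, and 11966 of all 23410 transcripts also lay below 0. Of the 3, 1 was lower at an unadjusted p under 0.05 (33.3%, against 5.92% of all transcripts). Abca1, the exporter that loads cholesterol onto lipid-poor apolipoproteins, read 7.83, 7.86 and 7.67 in the B6 pools and 7.41, 7.56 and 7.51 in the B6-ChrYSJL pools. All 3 B6-ChrYSJL pools lay below all 3 B6 pools. B6 averaged 7.79 ± 0.10 (SD, n = 3 pools) and B6-ChrYSJL 7.49 ± 0.08, a log2 fold change of −0.29 (SE 0.08, 95% interval −0.47 to −0.12, 1.23-fold lower). Its unadjusted p was 0.0051 and its FDR 0.323, the lowest of the members. Under each of the 16 alternative settings the value stayed below 0 (−0.35 to −0.25) and the unadjusted p under the threshold, and under none did the FDR reach 0.05. In RNA from bulk cells, fewer cells of a type that expresses Abca1 and less Abca1 RNA per cell cannot be told apart.

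Abcg1, the exporter that passes cholesterol to high-density lipoprotein, had the same sign. It read 9.71, 9.65 and 9.71 in the B6 pools and 9.52, 9.65 and 9.54 in the B6-ChrYSJL pools. The separation was slight, since the lowest B6 pool was 9.649 and the highest B6-ChrYSJL pool 9.647. The log2 fold change was −0.12 (SE 0.07, 1.09-fold, unadjusted p = 0.11, FDR 0.56). Nr1h3, which encodes the α form of LXR, lay close to the background level. Its B6 pools read 6.21, 6.31 and 6.35 and its B6-ChrYSJL pools 6.00, 6.10 and 6.44. The highest of all pools was B6-ChrYSJL replicate 3, and the log2 fold change was −0.11 (SE 0.11, FDR 0.77). Each B6-ChrYSJL pool weighed on this value: it was −0.24 without replicate 3 (unadjusted limma p of 0.021), −0.02 without replicate 1 (0.86) and −0.07 without replicate 2 (0.63).

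**Figure D3:**
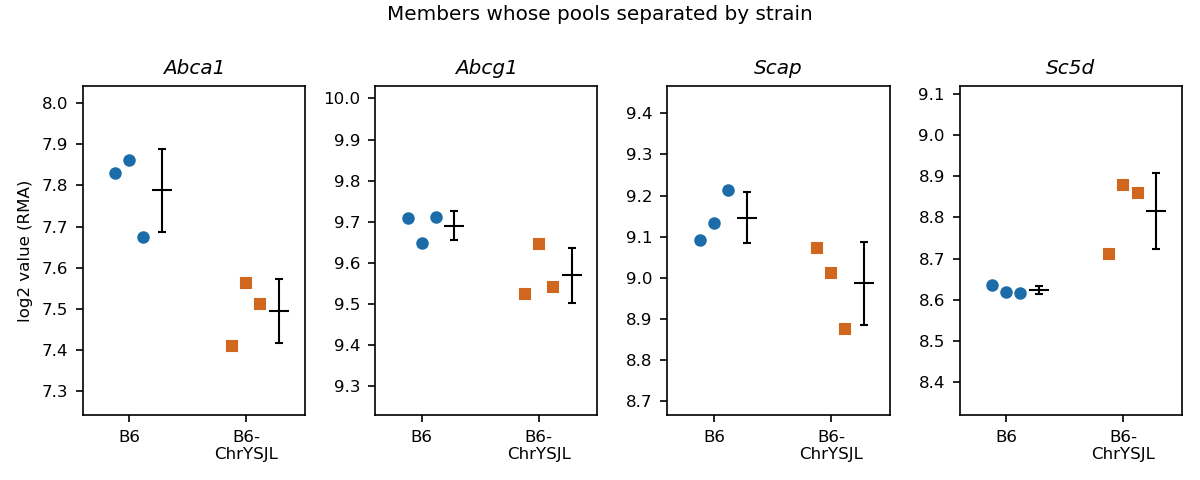
RMA log2 values of the 4 members whose pools did not overlap between strains, one point per pool, with the mean and SD of 3 pools beside them. Abca1 shows the widest gap, from 7.67 in the lowest B6 pool to 7.56 in the highest B6-ChrYSJL pool, and Abcg1 the narrowest, from 9.649 to 9.647; each panel spans the same height and does not start at 0.

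The levels of the groups were also compared by pool, after each gene was centred on its mean over the arrays and the genes of a group were averaged. Efflux and LXR genes lay at 0.08 to 0.10 in B6 and at −0.19 to −0.00 in B6-ChrYSJL, without overlap. This held when arrays were centred on their medians and when quantile normalization was repeated. Of these genes Abca1 alone was separated under each scaling, so the average of the group is not a result apart from Abca1. The transport genes lay at 0.02 to 0.04 and −0.05 to −0.01, also without overlap under each scaling. The control circuit separated by a narrow margin, 0.01 to 0.03 against −0.03 to 0.00, and overlapped under either other scaling. The early enzymes overlapped between the strains under each scaling. The late enzymes overlapped as deposited (−0.06 to 0.04 against −0.02 to 0.04) and with arrays centred on their medians, but not when quantile normalization was repeated, where B6-ChrYSJL lay higher.

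Markers of T cell states were lower in the same pools in which Abca1 was lower. Over all transcripts tested, 5.92% were lower and 4.69% higher at an unadjusted limma p under 0.05. The marker lists here and below were drawn up with earlier results of these data known. Their shares therefore describe the pools and do not test a difference. Of 14 markers of activated or memory T cells, 13 were lower in B6-ChrYSJL at this threshold (92.9%) and none was higher. The log2 values summed to 123.65 to 124.93 in B6 and 116.69 to 118.41 in B6-ChrYSJL. Cd44, the adhesion receptor that defines memory cells, differed by −0.26. Of 11 markers of regulatory T cells, 7 were lower (63.6%) and none was higher (sums of 99.40 to 101.05 and 96.97 to 97.85), and Foxp3 differed by −0.21. Of 16 cell cycle genes, 9 were lower (56.2%) and none was higher (117.09 to 117.59 and 111.54 to 114.57). Mki67 differed by −0.62 and averaged 5.82, below background, in B6-ChrYSJL. Of 9 markers of CD8 and natural killer cells, 3 were lower (33.3%) and none was higher (53.19 to 54.17 and 52.18 to 52.60). These were Cd8a (−0.54), Cd8b1 (−0.28) and Gzmb (−0.16, at an average of 5.68, below background). The natural killer markers Klrb1c, Ncr1 and Klrk1 did not pass the threshold, and 4 of the 9 (44.4%) averaged above background. The part of these cells and states in the lower values of Abca1 and Abcg1 was not tested.

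Markers of other cell types averaged above background for 10 of 12 B cell genes (83.3%), 9 of 15 myeloid and dendritic cell genes (60.0%) and 5 of 9 stromal genes (55.6%). Of all transcripts tested, 61.6% did. Csf1r, which defines macrophages, averaged 5.76, below background, and Lyz2, of myeloid cells, averaged 7.18 and differed by −0.24. Of 15 myeloid and dendritic cell markers, 1 was higher (6.67%, against 4.69% of all transcripts), and the sums overlapped (99.03 to 99.95 and 98.85 to 99.46). B cell markers were higher for 3 of 12 (25.0%), 11 of the 12 lay above 0 (median 0.21), and Cd79a averaged 6.09. Their sums overlapped (75.87 to 76.85 and 75.41 to 81.87) through B6-ChrYSJL replicate 1, where the list lay at −0.20. It lay at 0.19 and 0.34 in replicates 2 and 3 and at −0.16 to −0.08 in B6. Sc5d read 8.71, 8.88 and 8.86 in B6-ChrYSJL replicates 1, 2 and 3 and 8.62 to 8.63 in B6. Stromal and endothelial markers were higher for 3 of 9 (33.3%), Pdpn (0.20), Col1a2 (0.18) and Col3a1 (0.18). Of the 9, 7 lay above 0, while the endothelial Pecam1 differed by −0.02. Their sums, 58.13 to 58.28 and 58.76 to 59.06, did not overlap, and the list stood apart under each scaling. The 2 erythroid markers measured overlapped. The 7 CD4 T cell markers measured did not pass the unadjusted threshold in either direction, and their sums overlapped (78.93 to 79.02 and 78.63 to 79.24). The part of these cells in the values of Sc5d was not tested.

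**Figure D4:**
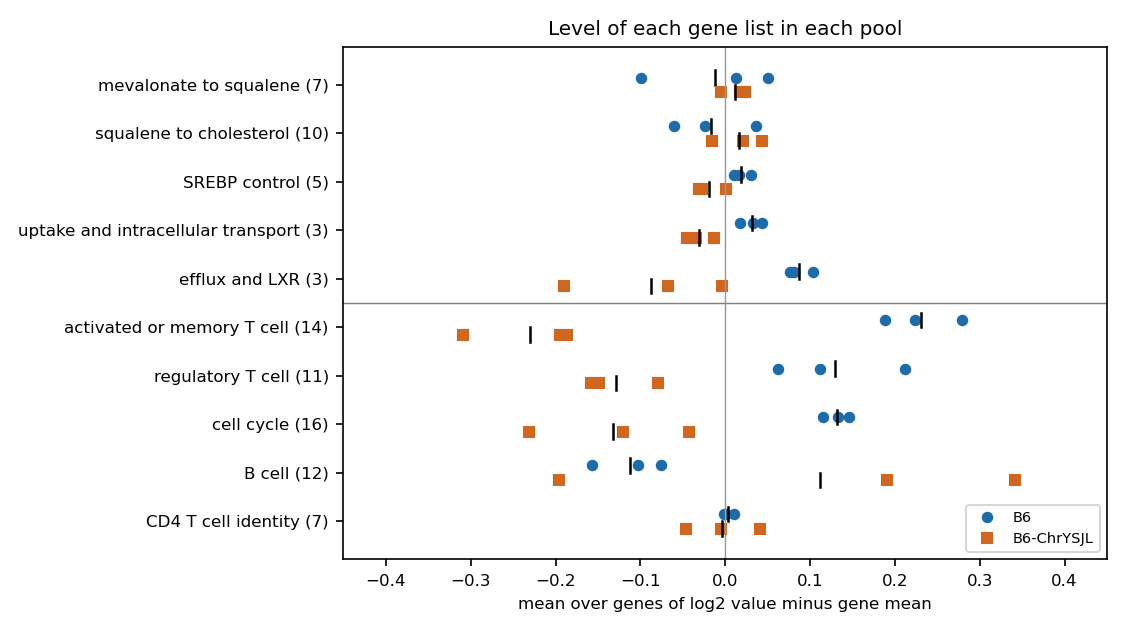
Level of each gene list in each pool, as the average of its genes' log2 values, each centred on its mean of 6 arrays, with the number of genes in brackets, B6 as circles, B6-ChrYSJL as squares and group means as short lines. The efflux and LXR list, which holds Abca1, and the lists of memory, regulatory and cell cycle genes were lower in all 3 B6-ChrYSJL pools. So were the transport list and, by a narrow margin, the SREBP control list. The synthesis, B cell and CD4 T cell lists overlapped.

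Of 64 listed genes of neighbouring pathways, 57 were measured, none passed an FDR of 0.05, and 3 were higher and 3 lower at an unadjusted p under 0.05 (5.26% each, against 4.69% and 5.92% of all transcripts). Their median was −0.02. None of the 10 measured genes of SREBP cleavage, sterol-regulated protein degradation and the DNA-binding partners of SREBP (NF-Y subunits and Sp1) passed the unadjusted threshold. Neither did any of the 13 genes of the isoprenoid branch, which makes prenyl anchors, ubiquinone and dolichol from mevalonate products. Of these, 2 lay above and 11 below 0, with a median of −0.06, which became 5 and 8 with a median of −0.03 when quantile normalization was repeated.

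Among 13 measured fatty acid genes that SREBP controls, 2 were higher and 1 was lower at an unadjusted p under 0.05. These were 15.4% and 7.69% of the list, against 4.69% and 5.92% of all transcripts. Elovl6, which lengthens palmitate, lay between 6.29 and 6.73 in B6 and between 6.67 and 7.22 in B6-ChrYSJL, with an overlap of 1 pool. The log2 fold change was 0.45 (SE 0.16, unadjusted p = 0.020, FDR 0.40). The desaturase Fads2 differed by 0.30 (FDR 0.35) but averaged 5.73, below background. Its relative Fads1 differed by −0.16 (FDR 0.45), with B6 pools at 7.31 to 7.43 and B6-ChrYSJL pools at 7.17 to 7.25. Scd1, the stearoyl-CoA desaturase, named after its value was seen, differed by 0.44 at an average of 5.51, also below background, with an unadjusted p of 0.058.

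Of 21 measured genes of sterol storage, transport and oxysterols, 1 was higher and 2 were lower (4.76% and 9.52%, against 4.69% and 5.92% of all transcripts). Gpr183, the oxysterol receptor that guides lymphocytes within lymph nodes, read 9.48, 9.96 and 9.71 in B6 and 10.06, 10.11 and 10.01 in B6-ChrYSJL. The strains did not overlap, and the log2 fold change was 0.34 (SE 0.11, unadjusted p = 0.016, FDR 0.39). Rxra, the partner of LXR, lay at 7.21 to 7.56 in B6 and at 7.01 to 7.17 in B6-ChrYSJL, a log2 fold change of −0.29 (unadjusted p = 0.019, FDR 0.40). Abca7, a transporter related to Abca1, lay at 8.03 to 8.14 and at 7.87 to 7.92, a log2 fold change of −0.19 (unadjusted p = 0.018, FDR 0.40). Mylip and Lpcat3, LXR targets that were named after their values were seen, differed by −0.05 each, with unadjusted p of 0.58 and 0.69.

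**Figure D5:**
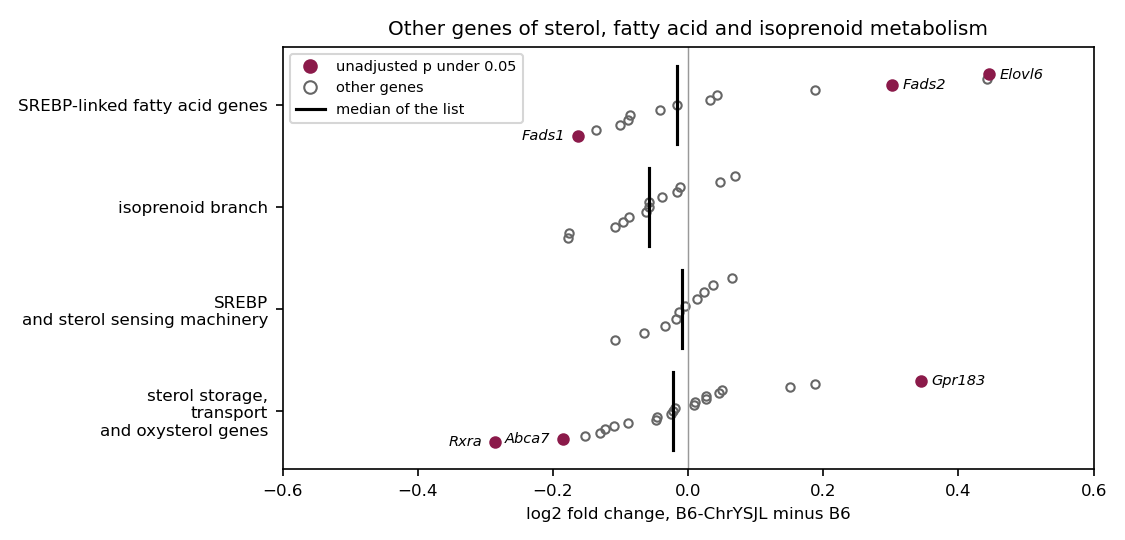
Log2 fold changes, B6-ChrYSJL minus B6, of 57 genes in 4 neighbouring pathway lists, each point one gene, filled where the unadjusted p was under 0.05, with the median of each list as a black line. The medians lie between −0.06 and −0.01, and the 6 filled points are Elovl6, Fads2, Fads1, Gpr183, Rxra and Abca7.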

How the data were processed

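Per the labels and the study's methods, 50 ng of RNA from each pool was amplified with the Nugen Ovation system and hybridized to Affymetrix Mouse Gene 1.0 ST arrays. The authors summarised the signals with RMA in Partek (background subtraction, quantile normalization, median polish) and deposited 1 log2 value per transcript cluster. The submitters' processing notes name mm9, and no coordinate on that build is printed.

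The platform annotation gave 1 gene symbol to 21789 of the 35556 deposited clusters and several to 1621. Linear models (lmFit and eBayes of limma 3.58.1, R 4.3.3, no block) were run on these 23410. Each gene was read at its cluster of highest mean. No column belonged to samples outside the series. The members and lists were chosen with earlier results of these data known. Named in full were members with an unadjusted p under 0.05 or pools that did not overlap, the 2 highest and 2 lowest by mean level, and the smallest p in each of 5 roles. Of other lists, genes with an unadjusted p under 0.05 were named, and for markers the defining ones. The fit was tested on simulated data. The 16 alternatives covered variance models, array weights, the replicate number as a block, filters, scalings, cluster choice and each array left out. List levels under other scalings were added after seeing the data. The number of arrays limits the precision. Figures used Python 3.11.15 and matplotlib 3.10.9.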

Additional observations from a re-analysis of the deposited data

How the results depend on the processing

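No member passed an FDR of 0.05 under any of the 16 alternatives, where the lowest FDR of the members lay between 0.196 and 0.622. Abca1, Abcg1, Hmgcs1, Npc2, Srebf2 and Stard4 kept their direction and their side of the unadjusted threshold in all 16, but for members that were not called the size depended on single arrays: leaving out each in turn gave −0.13 (without B6 replicate 2) to −0.0007 (without B6 replicate 3) for Npc2, 0.062 (without B6-ChrYSJL replicate 3) to 0.15 for Hmgcs1, −0.083 to −0.037 (without B6 replicate 1) for Srebf2, −0.18 to −0.085 for Stard4 and −0.16 to −0.096 for Abcg1. The value of Lss, near 0, changed sign to 0.0040 with array weights and ranged from −0.079 to 0.061 as each array was left out, above 0 without B6 replicate 3 (0.061), B6-ChrYSJL replicate 1 (0.012) or B6-ChrYSJL replicate 2 (0.029). Repeating quantile normalization gave a median of 0.013 for the members and 0.082 for the synthesis enzymes (0.042 as deposited), with 4 members higher and 8 without overlap, Scap and Abcg1 no longer among them. Members lower at an unadjusted p under 0.05 numbered 2, Scap joining Abca1, with an intensity trend, with array weights and with transcripts above background alone. Leaving out each array in turn gave 0 to 1 members higher, 1 to 2 lower and 6 to 10 without overlap, fewer pools being easier to separate. Members higher numbered 0 without B6 replicate 2, B6-ChrYSJL replicate 2 or B6-ChrYSJL replicate 3, and members lower numbered 2 without B6 replicate 1 (Ebp), B6-ChrYSJL replicate 1 (Scap) or B6-ChrYSJL replicate 3 (Nr1h3). Transcripts past an FDR of 0.05, 4 in the reported fit, numbered 0 without variance moderation, 55 with an intensity trend, 13 above background alone, 0 over all deposited clusters, 11 with median-centred arrays, 2 after repeated quantile normalization, 8 with a mean over a gene's clusters, and 0 to 7 with an array left out. The causes were not tested.

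Same-numbered pools did not deviate together over all transcripts (correlations of −0.00, −0.04 and −0.02). These correlations cannot show whether same-numbered pools were handled together. With the replicate number as a block, Sc5d and Abca1 remained the 2 members with an unadjusted p under 0.05, 0 members passed an FDR of 0.05, and 1014 transcripts were higher and 1199 lower, against 1099 and 1385.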
